A study of Mus musculus with 18 samples.

Results

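Acetylated histone H3 (H3Ac) was mapped in mouse embryonic fibroblasts (MEFs) with and without the retinoblastoma gene Rb, and the peaks on chromosomes 1 to 19 are described here. The members are all autosomal peaks of the H3Ac list of GFP cells and of the H3Ac list of Cre cells, 47904 of 48778 and 41827 of 42660 peaks, out of 225177 peaks in the 8 histone peak lists of the series. Both groups are MEFs of a mixed B6;129 background that carry a conditional Rb allele and received no reprogramming factors. The GFP group was infected with Adeno-GFP, an adenovirus that leaves the allele intact, and the Cre group with Adeno-Cre, an adenovirus that brings in the recombinase that deletes it. Cells were then expanded for at most 3 passages and immunoprecipitated with an antibody against H3Ac. Each group has 1 H3Ac library and 1 library each for H3K4me3, H3K27me3 and H3K9me3. The share of cells that lost Rb in the Cre culture was not measured in these lists.

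Acetyl groups on the tail of histone H3 are added by acetyltransferases such as p300 and CBP and removed by histone deacetylases. They mark active promoters and active enhancers. Trimethylation of lysine 4 on the same histone (H3K4me3) is concentrated at promoters, so an H3Ac peak with H3K4me3 is usually promoter-like and an H3Ac peak without it is often a distal element such as an enhancer. Rb binds E2F transcription factors and can bring histone deacetylases to their target promoters. Each H3Ac peak was therefore assigned to 1 of 2 classes, by whether it shared at least 1 base with an H3K4me3 peak of the same condition, and the classes were compared between GFP and Cre cells.

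With 1 library on each side, the condition and the library cannot be told apart, and no difference has a replicate check or a p-value. The read depth behind the lists was unknown, and a list can be shorter because of fewer reads or weaker enrichment. The Cre list was the shorter one for all 4 marks on the autosomes: 21850 against 22967 peaks for H3K4me3, 29328 against 34064 for H3K27me3 and 3516 against 9574 for H3K9me3. What this contributes to the H3Ac differences was not tested. Intervals in parentheses are exact 95% binomial intervals, which cover counting error only and take neighbouring peaks as independent. Intervals of medians come from the same binomial distribution applied to the ordered values. The score of a peak is the authors' own and is used only as a rank within its list. Positions are in build NCBIM37. Because gene models of this build were not used, no peak is assigned to a gene, and the fibroblast label was not checked against marker genes.

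The shorter Cre list was short of peaks without H3K4me3, while the peaks with H3K4me3 were slightly more numerous. GFP cells held 28070 H3Ac peaks without H3K4me3 and Cre cells 20751, a Cre to GFP ratio of 0.739 (0.726 to 0.753). With H3K4me3 there were 19834 peaks in GFP cells and 21076 in Cre cells, a ratio of 1.06 (1.04 to 1.08). The promoter-like class thus made up 41.4% of the GFP list and 50.4% of the Cre list. In covered length the contrast was larger: the class without H3K4me3 spanned 43.4 Mb in GFP cells and 29.2 Mb in Cre cells, and the class with H3K4me3 spanned 44.8 Mb and 45.3 Mb. The classes rest on H3K4me3 lists that themselves differ between the conditions. When a peak was assigned by H3K4me3 in either condition, the ratios were 1.02 (1.00 to 1.04) with and 0.757 (0.744 to 0.771) without H3K4me3. When the GFP list was cut to its 41827 highest-scoring peaks, the ratio without H3K4me3 was closer to 1, at 0.919 (0.901 to 0.936). With H3K4me3 it was then 1.10 (1.07 to 1.12).

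**Figure D1:**
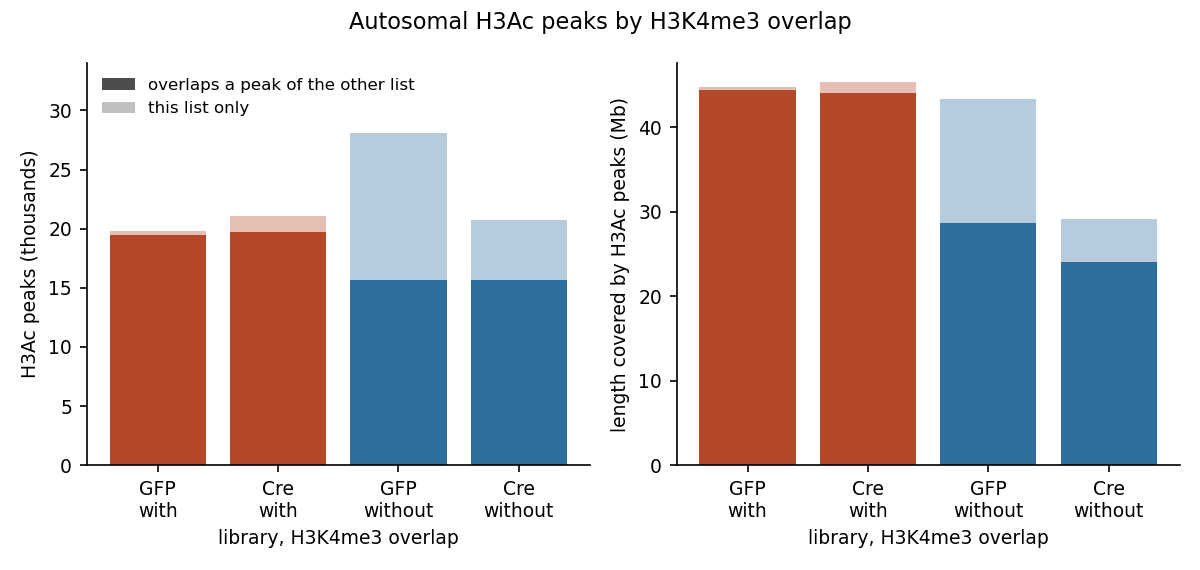
Number of autosomal H3Ac peaks, in units of 1000 (left), and length they cover in Mb (right), for the GFP and Cre lists, with and without an overlapping H3K4me3 peak; dark parts of the bars overlap an H3Ac peak of the other list, pale parts do not. The bars with H3K4me3 are of nearly equal height (44.8 and 45.3 Mb), and the pale part is largest for GFP peaks without H3K4me3, 12412 peaks.

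The classes also differed in width and score in both libraries. The median width was 1790 bases with and 1272 bases without H3K4me3 in GFP cells, and 1748 and 1175 bases in Cre cells. The median score percentile within the list was 77.4 with and 33.4 without H3K4me3 in GFP cells, and 73.8 and 29.3 in Cre cells. The highest scores were almost all promoter-like: 3116 of 3159 GFP peaks and 2366 of 2374 Cre peaks with a score of 3100 or more overlapped H3K4me3. Many scores are tied at 3100, called the ceiling here.

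GFP peaks without H3K4me3 were the ones that most often lacked a counterpart in the other condition. Over all autosomal peaks, 26.8% of the GFP list had no Cre H3Ac peak, and 15.4% of the Cre list had no GFP peak. In the GFP list this held for 12412 peaks without H3K4me3 and for 406 peaks with it. As shares overlapping a Cre peak, 55.8% of GFP peaks without H3K4me3 (55.2 to 56.4) and 98.0% of those with it (97.7 to 98.1) were found in both. In the Cre list the classes lay closer together: 75.3% without H3K4me3 (74.7 to 75.9) and 93.7% with it (93.3 to 94.0) overlapped a GFP peak. Among promoter-like peaks the direction turned, with 1331 found only in Cre cells and 406 found only in GFP cells. When the GFP list was shortened to its 41827 highest-scoring peaks, the number in the Cre list, 8430 GFP and 6291 Cre peaks without H3K4me3 lacked a counterpart, so that the 2 directions came closer. Among promoter-like peaks the same cut moved them farther apart, to 244 GFP-only and 1810 Cre-only peaks. By length, Cre peaks covered 89.7% of the promoter-like GFP bases and 50.4% of the other GFP bases, leaving 21.5 Mb without H3K4me3 uncovered.

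Weak peaks were shared less often than strong ones in both lists, so the classes were compared at equal score decile, each decile holding 10% of the list. In the GFP list the gap between classes persisted. In the lowest decile 69.2% of promoter-like and 26.4% of other peaks had a Cre counterpart, in the third decile 90.2% and 42.0%, and in the fifth 96.5% and 66.9%. In the ninth decile the shares were 100% and 99.1%. In the Cre list there was no such gap: the lowest decile stood at 39.1% with and 49.2% without H3K4me3, the third at 63.6% and 71.0%, and the fifth at 89.6% and 92.5%. With each decile given equal weight, sharing of GFP peaks was 93.3% with and 68.6% without H3K4me3, a difference of 24.7 percentage points. For Cre peaks the values were 82.6% and 85.1%, a difference of -2.46 points. At equal rank, then, an acetylated region without H3K4me3 was found again less often than a promoter-like one going from GFP to Cre, whereas going from Cre to GFP it was found again slightly more often. Cre peaks without H3K4me3 were the wider ones at equal rank, with medians of 1554 against 1140.5 bases in the fifth decile. When Cre peaks were instead divided into 5 parts by width, those without H3K4me3 were shared less often in each. The shares were 68.8% with and 52.9% without H3K4me3 in the narrowest part, and 96.2% and 83.9% in the middle one. Score rank was then not equal, with median percentiles of 25.5 and 8.75 in the narrowest part.

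**Figure D2:**
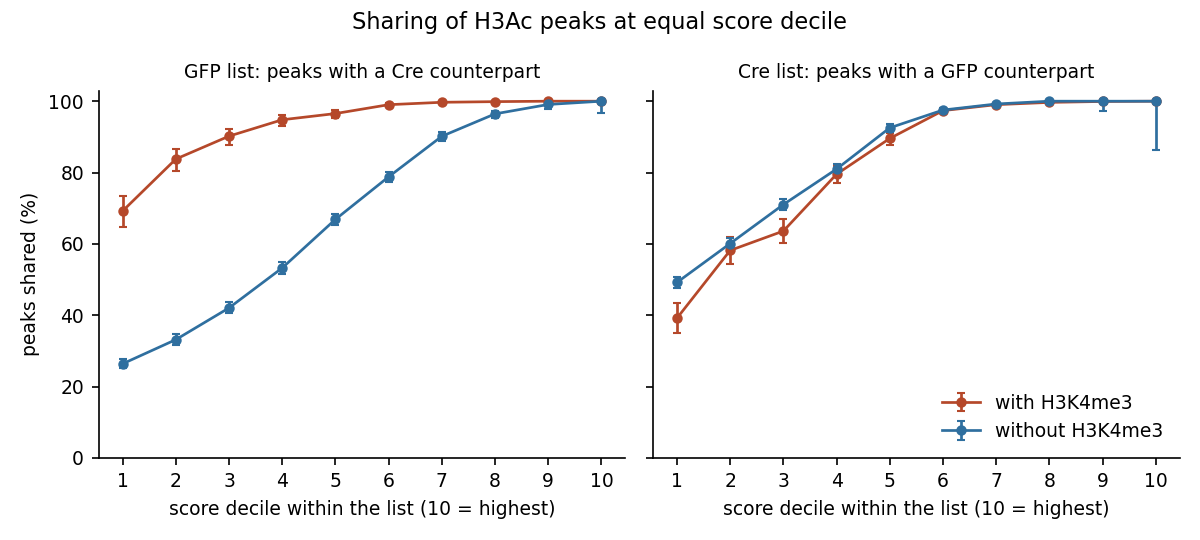
Share of H3Ac peaks (%) that overlap a peak of the other list, by score decile within the list, for GFP peaks (left) and Cre peaks (right); points are shares with exact 95% intervals, red with and blue without H3K4me3. The curves are far apart in the lower deciles of the GFP list (69.2% against 26.4% in the lowest) and run close together in the Cre list.

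Peaks found in 1 list only were narrow and low in rank. GFP-only peaks without H3K4me3 had a median width of 1056 bases and a median percentile of 20.6, against 1550 bases and 46.2 for shared GFP peaks of the class. They still spanned 14.7 Mb, and 974 of them ranked in the upper 50% of the GFP list. Cre-only peaks without H3K4me3 had a median width of 929 bases and a median percentile of 14.6, and only 63 of 5124 ranked in the upper 50% of the Cre list. Few GFP-only peaks of this class were shifted copies of a Cre peak: 13.1% had a Cre H3Ac peak within 1 kb, and 44.7% had none within 10 kb. Of the 406 promoter-like GFP-only peaks, 40.9% had a Cre H3Ac peak within 1 kb.

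GFP peaks that touched H3K4me3 were shared more often than peaks at any distance from it. GFP peaks under 2 kb from an H3K4me3 peak, without touching it, overlapped a Cre peak in 66.4% of cases (64.7 to 68.2), against 98.0% for those that touched it. From 2 to 5 kb the share was 54.8%, from 5 to 20 kb 56.7%, from 50 to 100 kb 54.8%, and at 100 kb or more 47.9% (46.3 to 49.5). The Cre to GFP ratio of peak number went down in steps along the same axis. It was 0.854 (0.810 to 0.902) under 2 kb, 0.748 from 5 to 20 kb, 0.719 from 50 to 100 kb and 0.652 (0.619 to 0.686) at 100 kb or more. In the Cre list the share with a GFP counterpart varied less with distance, from 76.2% under 2 kb to 71.9% at 100 kb or more. The median distance to H3K4me3 was 21.9 kb for GFP and 19.98 kb for Cre peaks outside it. At the edge of the rule the classes were closer. The 119 GFP peaks that shared 1 to 100 bases with H3K4me3 had a median percentile of 33.7 and were shared in 87.4% of cases, and the 190 that missed it by at most 100 bases had 37.2 and 85.3%. In the Cre list the shares were 77.1% of 118 peaks and 66.8% of 217 peaks.

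**Figure D3:**
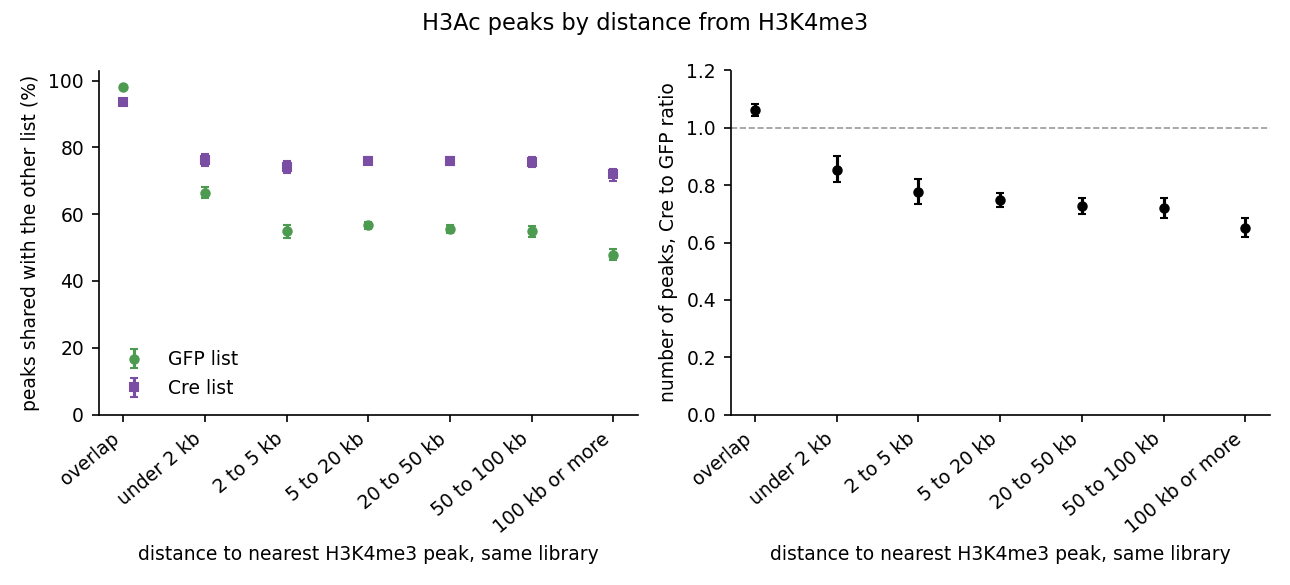
Share of H3Ac peaks (%) found in the other list (left) and Cre to GFP ratio of peak number (right) by distance to the nearest H3K4me3 peak of the same library; error bars are exact 95% intervals. The ratio goes from 1.06 at H3K4me3 to 0.652 at 100 kb or more, and the GFP shares go from 98.0% to 47.9%.

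GFP peaks without H3K4me3 in the largest groups were found again in Cre cells more often than peaks that stood alone. Peaks of this class were joined into clusters where the gap to the next was at most 12.5 kb, the arrangement seen at large enhancer domains. Of GFP peaks in clusters of 10 or more, 67.5% had a Cre counterpart (65.0 to 70.0), against 52.5% of single peaks (51.6 to 53.5). The clustered peaks ranked higher, with a median percentile of 43.5 against 29.1. Among peaks in the lower 50% of the scores the shares were 49.9% and 43.6%. Clusters of 2, 3 to 4 and 5 to 9 peaks there had 43.0%, 42.1% and 43.5%, close to single peaks. In the Cre list, too, peaks of the largest groups were shared more often than single ones. Of its peaks in clusters of 10 or more, 85.4% had a GFP counterpart, against 69.7% of single peaks. In the lower 50% of the Cre scores these shares were 77.1% and 65.0%. Unlike in the GFP list, smaller clusters there were also above single peaks. Clusters of 2, 3 to 4 and 5 to 9 had 69.8%, 74.5% and 78.2%. With clusters called separately in each list, 108 of 10 or more were found in GFP and 54 in Cre cells. A shorter list by itself holds fewer large clusters, so these 2 numbers do not compare the same groups of peaks.

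The strongest GFP-only peaks without H3K4me3 were wide and well above the middle of the list. The first, chr12:16920750-16929367, was 8618 bases wide with a score of 1902, percentile 87.7. Its nearest Cre H3Ac peak was 11.2 kb away and its nearest GFP H3K4me3 peak 11.3 kb away. The second, chr2:117569272-117575903, had a score of 1379, lay 216.4 kb from GFP H3K4me3 and 11.4 kb from the nearest Cre H3Ac peak. The third, chr3:141992128-141996745, was at percentile 80.2 with a Cre H3Ac peak 2.66 kb away. The fourth and the fifth, chr16:45076315-45081001 and chr6:91435582-91440854, were at percentiles 80.2 and 80.1, with Cre H3Ac peaks 4.62 and 7.99 kb away. None of these regions carried H3K27me3 or H3K9me3 in either library. The strongest Cre-only peaks without H3K4me3 ranked lower in their own list. The first, chr5:107417600-107421469, was at percentile 69.2, and the fifth, chr4:107657128-107658883, at 63.8. Their nearest GFP H3Ac peaks were 3.34 and 12.5 kb away. For the third and the fourth Cre-only peaks the nearest GFP H3Ac peak was only 0.225 and 0.042 kb away.

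The second of those GFP-only peaks belonged to a group on chromosome 2 in which peaks were fewer, narrower and lower in rank in Cre cells. Between chr2:117364224 and chr2:117638399 the GFP list held 21 H3Ac peaks that covered 55.3 kb, and the Cre list 8 peaks that covered 8.56 kb. No H3K4me3 or H3K27me3 peak of either library lay among them. The 3 pairs without H3K4me3 whose rank was lowered most in Cre cells were all in this group. The first, chr2:117422138-117426027, spanned 3890 bases at rank percentile 80.9 among pairs in GFP cells, and its Cre counterpart 726 bases at 0.304. The other pairs went from 78.8 to 4.81 and from 73.2 to 1.61. The group was picked out with these values known.

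Most promoter-like peaks found in 1 list only were weak: 7.29% of the Cre-only and 6.65% of the GFP-only ones ranked in the upper 50% of their list. The first 2 Cre-only ones by score, chr16:97682304-97685454 and chr10:97027605-97030811, were at percentiles 83.6 and 83.3 of the Cre H3Ac list, and their regions had no GFP peak of any mark. The fourth, chr5:121198250-121200626, was at percentile 79.4 and overlapped H3K4me3 in both conditions, where the H3K4me3 score was 75.5 for GFP and 3100 for Cre cells. The strongest promoter-like GFP-only peak, chr13:23840342-23843053, was at percentile 73.3 of its list and had a Cre H3Ac peak 0.192 kb away. The second, chr12:50486689-50488302, was at 72.6 and overlapped H3K4me3 and H3K27me3 in both libraries.

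Around the chromosome 5 peak, several promoter-like sites had more or wider H3Ac peaks in the Cre list. Across 250 kb, 3 GFP H3Ac peaks covered 5.75 kb and 10 Cre peaks covered 19.6 kb, the outermost of which were chr5:121164408-121165120 and chr5:121354683-121358351. H3K4me3 peaks there numbered 6 in each library but spanned 8.43 kb in the GFP library and 20.3 kb in the Cre library. H3K27me3 peaks numbered 15 in each and spanned 31.1 kb and 32.7 kb. The pair with the greatest upward move in rank among those with H3K4me3 in both conditions, chr5:121336260-121338427 in Cre cells, lay here. It stood at percentile 3.34 among pairs in GFP cells and at 85.0 in Cre cells, and widened from 924 to 2168 bases. A site on chromosome 12 moved the other way. Across 40 kb that take in chr12:50486689-50488302, H3Ac peaks covered 11.8 kb in GFP and 5.23 kb in Cre cells. H3K4me3 peaks covered 13.5 and 9.67 kb, and H3K27me3 peaks 25.1 and 29.0 kb. Its highest H3Ac score was 665.3 for GFP and 156.1 for Cre cells. Its highest H3K27me3 score was at the ceiling of 3100 for both, and the median over its H3K27me3 peaks was 266.4 and 970.5. Each score is on the scale of its own list. Both sites were picked out with these values known.

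The widest peaks without H3K4me3 were largely covered by H3Ac in Cre cells, some of them in pieces. The widest in either list was the same domain, chr4:138777051-138799203 in GFP cells with 22153 bases and chr4:138777044-138799050 in Cre cells with 22007 bases, although its score percentile was 93.4 in GFP and 81.5 in Cre cells. The second widest GFP peak of the class, chr19:5803700-5824467 with 20768 bases, was split into 4 Cre peaks that covered 84.3% of it, and it overlapped a Cre H3K4me3 peak. The third widest lay next to the first, with 18621 bases, and 3 Cre peaks covered 98.6% of it. The 54517-base GFP domain chr15:77617378-77671894, the widest promoter-like one, was broken into 5 Cre peaks that covered 89.3% of it. One of these, chr15:77622625-77640451, was the second widest Cre peak without H3K4me3. Its own bases overlapped no H3K4me3 peak of either library, the nearest being 21.5 kb away in GFP and 24.4 kb in Cre cells.

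To treat the libraries alike, overlapping H3Ac peaks of both were joined into 52380 regions. Of 19198 regions with H3K4me3 in both conditions, 93.9% were acetylated in both, 322 in GFP cells only and 845 in Cre cells only. Of 31022 regions with H3K4me3 in neither, 43.9% were acetylated in both, 12310 in GFP cells only and 5088 in Cre cells only. Regions with H3K4me3 in Cre cells only were more numerous than the reverse, 1672 against 488. Among them 486 were acetylated in Cre cells only and 100 in GFP cells only, while of the 488 regions 84 were acetylated in GFP cells only and 33 in Cre cells only. Most regions of both sets were acetylated in both conditions, 65.0% of the 1672 and 76.0% of the 488. Over all 52380 regions, 24.5% were acetylated in GFP cells only and 12.3% in Cre cells only. Where H3K4me3 and acetylation were each found in 1 condition only, it was mostly the same condition.

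H3K4me3 also differed in rank where it was present in both conditions and acetylation in 1 only. Regions were ranked by H3K4me3 score in each library, among those below the ceiling of 3100 in both. Where only Cre cells were acetylated, the shift of H3K4me3 rank from GFP to Cre cells had a median of 4.22 percentile points over regions (3.10 to 5.18, n = 818 regions). Where only GFP cells were acetylated, the median of these shifts was -5.14 points (-6.81 to -3.59, n = 301 regions). The 10901 regions acetylated in both had a median shift of -1.53 points. H3K4me3 ranked higher in Cre cells at 526 (64.3%) of the Cre-only regions and 100 (33.2%) of the GFP-only ones. Among regions acetylated in both it did so at 4778 (43.8%). H3K4me3 came from separate immunoprecipitations, which the labels give the same replicate number as H3Ac.

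Among peaks paired between the libraries, those without H3K4me3 were narrower in Cre cells and those with it differed little in width. Overlapping peaks were paired where each touched only the other, which gave 29733 pairs, 15692 with H3K4me3 in both conditions and 12645 with it in neither. Peaks split between the libraries were left out. Of GFP peaks, 6.11% with and 3.02% without H3K4me3 overlapped 2 or more Cre peaks. In the other direction, 6.74% of Cre peaks with and 2.23% without H3K4me3 overlapped 2 or more GFP peaks. Without H3K4me3 the median log2 width of Cre over GFP was -0.18 (-0.19 to -0.17), a ratio of 0.882, and 66.7% of Cre peaks were the narrower one. With H3K4me3 it was -0.0066 (-0.011 to -0.0026), a ratio of 0.995. Over all pairs, 11.5% of Cre peaks were at least 1.5 times narrower and 4.51% at least 1.5 times wider. Without H3K4me3 these shares were 22.5% (2844 pairs) and 5.47% (692 pairs), and with it 2.97% (466 pairs) and 3.43% (539 pairs).

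Pairs without H3K4me3 were also lower in score rank in Cre cells. Ranks were taken over all pairs in each library, so that a lower rank in 1 class entails a higher one in another. Their median shift was -4.05 percentile points in Cre cells (-4.37 to -3.68). For pairs with H3K4me3 it was 1.13 points, which is the offset between tied scores at the ceiling, where 1484 of these pairs lay in both libraries. Without the pairs at the ceiling, ranked again, the median shifts were 2.36 with and -4.39 without H3K4me3. Over all pairs, 19.2% ranked at least 10 points lower in Cre cells and 20.2% at least 10 points higher. Without H3K4me3 these were 36.2% and 18.8%, and with it 5.64% and 19.7%. The classes were farthest apart among pairs of lower to middle rank. With pairs below the ceiling divided into 5 parts by mean rank, the second part had median shifts of 13.8 points with (n = 1324 pairs) and -5.73 points without H3K4me3 (n = 3723 pairs), and the highest part 0.228 and -7.43 points. Pairs in which only the Cre peak overlapped H3K4me3 had the greatest median shift, 8.27 points (6.89 to 9.32, n = 1041 pairs), and those in which only the GFP peak did had -3.64 points (n = 355 pairs).

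**Figure D4:**
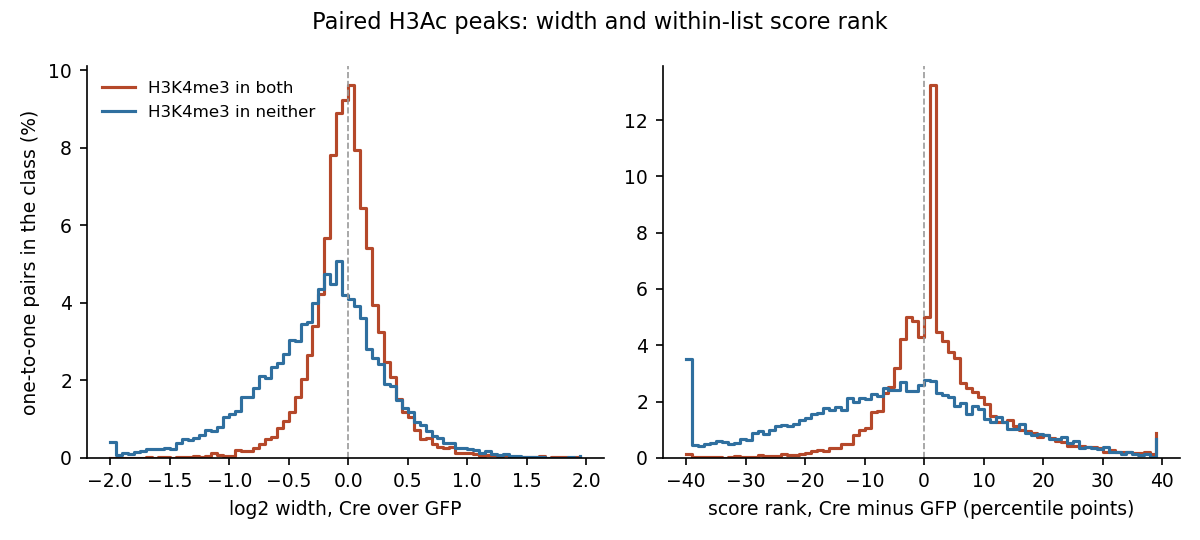
Distribution of log2 width, Cre over GFP (left), and of score rank, Cre minus GFP in percentile points (right), as the share (%) of paired H3Ac peaks in bins, red with H3K4me3 in both conditions and blue with it in neither; the end bins gather values beyond the axis. The blue curves are broader and extend to both sides of 0, with medians of -0.18 and -4.05. The red width curve is centred near 0. The red rank curve spikes at the offset of 1.13 points between tied scores and is heavier to the right of 0.

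H3K27me3, the mark of Polycomb repression, was rare at H3Ac peaks and more frequent at those of Cre cells. It overlapped 4.32% of promoter-like H3Ac peaks in GFP cells (4.04 to 4.61) and 6.27% in Cre cells (5.94 to 6.60), and 0.930% and 1.70% of those without H3K4me3. Among joined regions with H3K4me3 in either condition, H3K27me3 of either library was found at 34.5% of Cre-only H3Ac regions (31.9 to 37.0), 25.5% of GFP-only ones (21.8 to 29.5) and 5.65% of those acetylated in both. The 34.5% are 470 of 1364 Cre-only regions, and 351 of the 470 held H3K27me3 in both libraries. Promoter-like H3Ac peaks with H3K27me3 had a median percentile of 41.1 in GFP and 40.9 in Cre cells, against 77.4 and 73.8 for the class. Promoter-like peaks of 1 list only also ranked low, with medians of 17.1 in GFP and 23.1 in Cre cells. The H3K27me3 shares were not compared at equal H3Ac rank. Without H3K4me3 the shares were 5.37% of Cre-only, 0.894% of GFP-only and 1.42% of regions acetylated in both. H3K9me3, a heterochromatin mark, touched 27 promoter-like and 11 other H3Ac peaks in GFP cells, and 17 and 4 in Cre cells.

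In peak number, both classes kept their direction on every autosome. The Cre to GFP ratio of peaks without H3K4me3 ranged from 0.671 on chromosome 13 to 0.791 on chromosome 4, with the upper end of the interval below 1 on all 19. The ratio with H3K4me3 ranged from 1.03 on chromosome 16 to 1.11 on chromosome 12, above 1 on all 19, with the lower end of the interval above 1 on 4. By covered length the ratio without H3K4me3 was also below 1 on all 19, but with H3K4me3 it was slightly below 1 on chromosomes 3 (0.997), 13 (0.992), 15 (0.995) and 19 (0.989). The share of GFP peaks found in Cre cells ranged from 52.9% to 58.8% without and from 96.0% to 98.7% with H3K4me3. All 19 chromosomes come from the same pair of libraries and are not replicates.

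**Figure D5:**
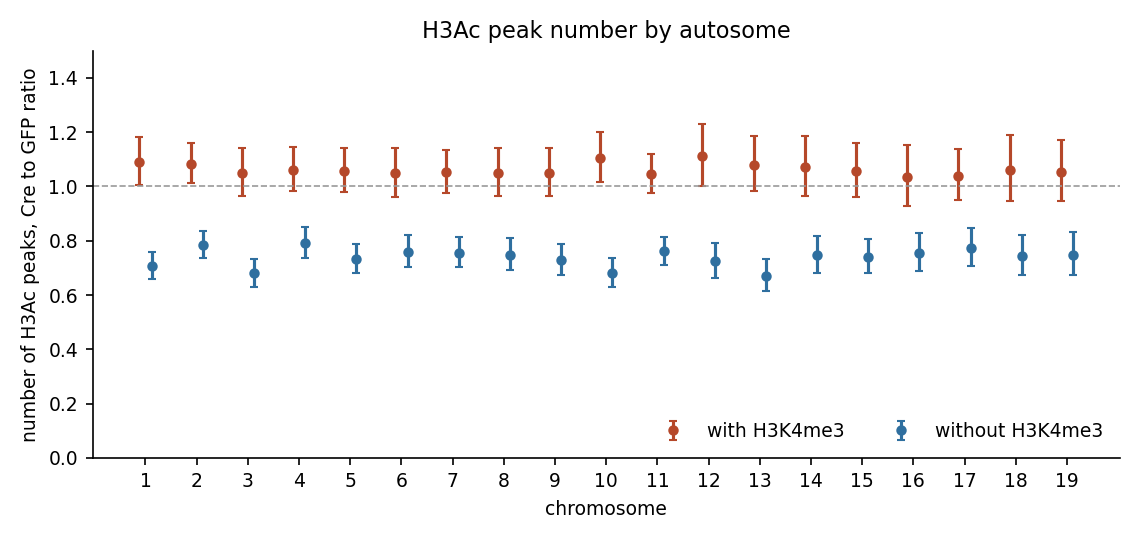
Cre to GFP ratio of the number of H3Ac peaks on each autosome, red with and blue without H3K4me3, with exact 95% intervals; the dashed line is a ratio of 1. All red points lie between 1.03 and 1.11 and all blue points between 0.671 and 0.791.

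In windows along the autosomes, peaks without H3K4me3 were mostly fewer in Cre cells, with higher counts in some windows. Windows of 1 Mb were taken where the GFP list held at least 20 peaks of this class, a choice that by itself favours lower Cre to GFP ratios. Of 540 such windows, 480 held fewer peaks in Cre cells and 46 held more. The highest ratio, 1.32, was on chromosome 11 between 98 and 99 Mb, with 31 GFP and 41 Cre peaks, which covered 43.7 and 60.9 kb. Promoter-like peaks there numbered 40 and 39. The next was on chromosome 5 between 107 and 108 Mb, with 31 and 39 peaks, the window of the strongest Cre-only peak without H3K4me3. Both windows are the extremes of the range, picked out with their values known, and whether they depart from the rest beyond counting error was not tested.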

How the data were processed

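Chromatin immunoprecipitation with sequencing was read out as 8 deposited peak lists, 1 per histone mark and condition. Each list gives position, peak name and a score, the authors' own, deposited without header or unit (lowest 50, highest 3233). Per the submitters' processing notes, the tools include MACS 1.4.1, BWA, bedtools 2.16.2 and SAMtools 0.1.18, and the build is NCBIM37. Which input served as control, duplicate handling and depth are not given in the sources used here. The labels number the H3Ac libraries and the Cre input replicate 3, and the GFP histone input replicate 1.

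Groups came from the titles. Peaks on chromosomes 1 to 19 counted as shared from 1 common base, starts being read as counted from 0 and printed from 1. Regions named are the 5 highest-scoring peaks of 1 list only and the 3 widest per list and class, and the 3 pairs moved most each way per class, of which the leading ones are given. The members, classes and rule were chosen with earlier results of these data known. The overlap code was checked against bedtools and tested on simulated data. The planned marker gene check was not run without an annotation. Alternatives were a score of at least 100, overlap of 50% of the peak, merging within 1000 bases, equal numbers of top-scoring peaks, H3K4me3 of either condition, H3K4me3 within 1000 bases and, added after the data were seen, pairs below the ceiling. Python 3.11.15, NumPy 2.4.6, pandas 2.3.3, SciPy 1.17.1 and matplotlib 3.10.9 were used.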

Additional observations from a re-analysis of the deposited data

How the results depend on the processing

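No paired analysis was possible because each mark has 1 library per condition, so the conditions share 1 replicate number only. None of the alternatives named in the methods turned the ratio of peak number to the other side of 1, the order of the classes in sharing or the sign of a rank shift. Weighting score deciles equally did turn the order of the classes in the Cre list, to 82.6% with and 85.1% without H3K4me3. Of 58 values recomputed, 22 stayed within the interval of the main value.

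With a score of at least 100, sharing without H3K4me3 was 56.4% of GFP and 79.1% of Cre peaks, the ratio of peak number without H3K4me3 0.681, the log2 width -0.0135 with and -0.151 without, and the rank shift 1.52 with and -4.85 without. With overlap of 50% of the peak, sharing was 97.1% of GFP and 92.7% of Cre peaks with H3K4me3 and 49.8% and 72.3% without; numbers, widths and ranks do not use it. With merged peaks, sharing with H3K4me3 was 98.2% of GFP and 94.3% of Cre peaks, the log2 width -0.0198 with and -0.194 without, and the rank shift 1.29 with and -3.59 without.

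With equal numbers of top-scoring peaks, 41827 in each list, sharing was 98.7% of GFP and 91.4% of Cre peaks with H3K4me3 and 62.7% and 69.7% without, the ratio of peak number 1.10 with and 0.919 without, the log2 width -0.216 without, and the rank shift 1.196 with and -4.41 without. This setting shortens the GFP list alone, and the numbers found in 1 list only without H3K4me3 were then 8430 in GFP and 6291 in Cre cells. With H3K4me3 they were 244 in GFP and 1810 in Cre cells.

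With H3K4me3 of either condition, sharing was 97.6% of GFP peaks with and 54.0% without, and the ratio 1.02 with and 0.757 without. With H3K4me3 within 1000 bases, sharing was 96.0% of GFP and 92.5% of Cre peaks with H3K4me3 and 54.7% of GFP peaks without. For pairs below a score of 3100 the log2 width with H3K4me3 was 0.0039, on the other side of 0, and the rank shift 2.36 with and -4.39 without.

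Depth is unknown, so that how far a shorter list comes from fewer reads was not tested.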

Other observations

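H3Ac peaks outside chromosomes 1 to 19 entered no comparison. They numbered 791 in GFP and 757 in Cre cells on chromosome X, 4 and 3 on chromosome Y, and 79 and 73 on unplaced sequence.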
